A study of Zea mays subsp. mays with 2 samples.

Results

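A small minority of the transcribed loci of maize seedlings stretch over more than 20 kb of genome, and these long loci are described here. The deposited table gives each locus a chromosome, a strand, a start and an end on B73 RefGen_v2, and the long loci are those whose span, the distance from start to end with introns included, exceeds 20000 bp. There are 1158 of them among 37398 listed loci, or 3.10%. The plants were maize of the inbred line B73, harvested 14 days after germination with shoots and roots collected apart. Polyadenylated RNA of each organ gave 1 strand-specific library, so 2 libraries are compared and no difference between the organs has a replicate check.

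Maize genes are often long because their introns hold inserted retrotransposons, mobile elements that also make up much of the space between genes. Introns are cut out of the RNA, so a long locus does not need to give a long transcript. Another transcription unit can lie within an intron of a long gene on the same strand, or run through it on the opposite strand as an antisense RNA. In the naming scheme used in the table, a locus bundles transcripts of 1 strand. Overlap in span did not always join them, since listed loci of 1 strand can lie inside or across one another. The level is given in FPKM, a count of sequenced fragments scaled by transcript length and by library size, which makes loci of unequal transcript length comparable within a library. The exons, the number of transcripts per locus and the sequencing depth are not part of the table.

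No locus carries a gene name. None of the identifiers of the long loci (0 of 1158) matched any of the 49888 genes of the RefSeq table at hand. The identifiers are serial numbers and not gene names, so this match cannot tell whether a long locus is a known gene. Positions were not matched, because the assembly of that table differs from that of the coordinates. Which of the long loci are coding, and whether the organ labels fit known shoot and root genes, was therefore not analysed here. In all listed loci, the median level was 8.91 FPKM in shoots and 8.20 in roots, and a locus entered the table only if it exceeded 1 FPKM in an organ.

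The long loci had a median span of 30614 bp, against 2443 bp for all listed loci. Their quartiles were 24012 and 47054 bp, 260 exceeded 50 kb and 68 exceeded 100 kb. By strand, 590 were plus and 568 minus. Together they covered 49.5 Mb, or 2.41% of the 2057 Mb between the first and the last listed locus of the 10 chromosomes. The long loci nearest to the threshold had unremarkable levels. Just above it, a pair of minus-strand loci spanned 20012 bp each. The one on chromosome 4 spanning 19601751 to 19621762 had 10.7 FPKM in shoots and 10.6 in roots. The other, on chromosome 6 spanning 67638626 to 67658637, had 25.3 and 37.8 FPKM. Next above them, a plus-strand locus of 20013 bp on chromosome 7 from 121377065 had 5.24 FPKM in shoots and 4.45 in roots. Just below the threshold, loci of 19998, 19979 and 19978 bp stood at 1.94, 10.6 and 26.1 FPKM in shoots and at 0.90, 13.8 and 42.8 FPKM in roots.

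The longest locus lay near the end of chromosome 2, on the plus strand spanning 226962774 to 227499809, a span of 537 kb. It had 7.10 FPKM in shoots and 8.61 in roots, and it held 9 other listed loci, 4 on its own strand and 5 on the other. The next longest, on the plus strand of chromosome 8 spanning 73386619 to 73688510, was 302 kb long and held none. Its level was much higher and nearly the same in both organs, at 352 FPKM in shoots and 360 in roots. On the minus strand of chromosome 6, a locus of 291 kb spanning 78199650 to 78490305 had 41.5 FPKM in shoots and 46.0 in roots, and it too held no other locus. A plus-strand locus of 262 kb on chromosome 5, spanning 68527418 to 68789388, had 32.7 FPKM in shoots and 48.1 in roots and held 7 loci. Next in span, a minus-strand locus of chromosome 8 spanning 123928358 to 124190213 (261856 bp) had 3.03 FPKM in shoots and 4.42 in roots. It held 8 loci, and 2 of those were themselves over 20 kb long. Extreme span thus occurred at low, middle and high levels, and all 5 of these loci were within 2-fold between the organs.

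**Figure D1:**
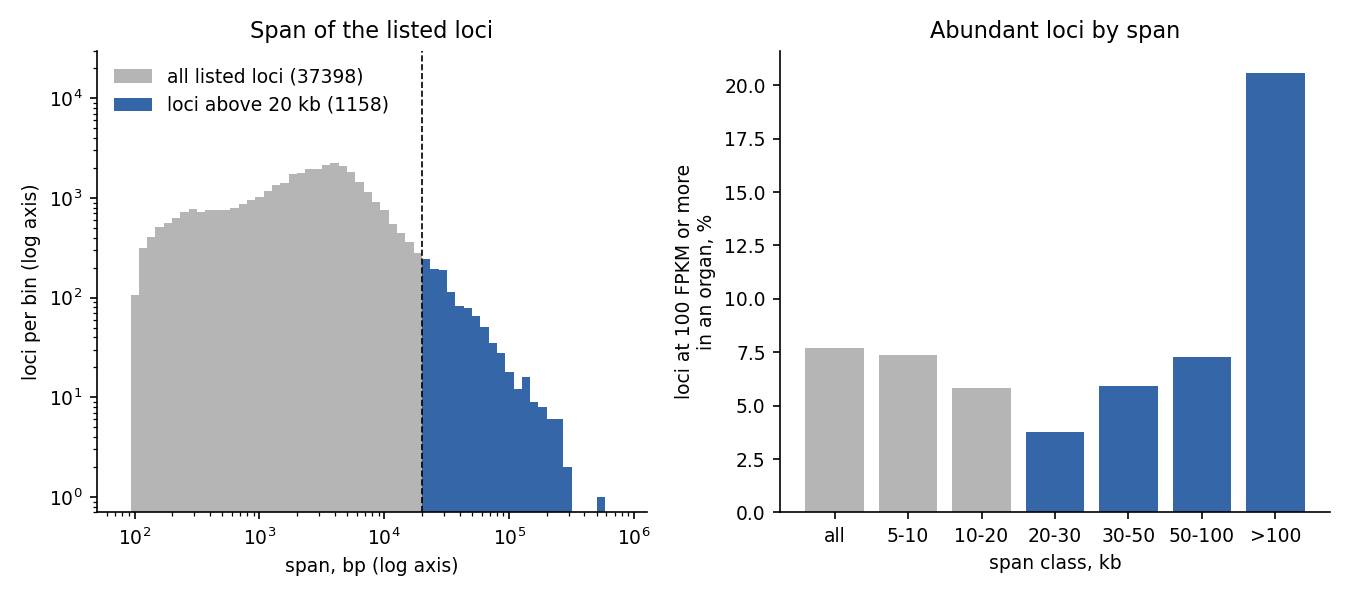
Left, number of loci per bin of span in bp, both axes logarithmic, for all 37398 listed loci (grey) and the 1158 long loci (blue), with the threshold dashed. Right, percentage of loci that reach 100 FPKM or more in an organ, by span class in kb; the share is 3.76% at 20 to 30 kb and 20.6% above 100 kb, against 7.69% of all loci.

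Long loci were transcribed at a higher median level than the list as a whole. Their median was 15.3 FPKM in shoots and 14.7 in roots. This is close to the level of shorter but still large loci: loci of 10 to 20 kb had medians of 17.0 and 15.8 FPKM, and those of 5 to 10 kb had 17.2 and 16.9 FPKM. Loci up to 5 kb stood at 6.66 FPKM in shoots and 5.89 in roots. At the lower end, 170 long loci (14.7%) stayed below 5 FPKM in both organs, against 30.3% of all loci. At the upper end, 69 long loci (5.96%) reached 100 FPKM or more in an organ, against 7.69% of all loci. Of the summed FPKM, the long loci made up 2.93% in shoots and 3.49% in roots.

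Within the long loci, the share of abundant loci was higher in the longer classes. It was 3.76% of the 559 loci of 20 to 30 kb, 5.90% of the 339 loci of 30 to 50 kb and 7.29% of the 192 loci of 50 to 100 kb. Above 100 kb it was 20.6%, or 14 of 68 loci. The median level of these longest loci was 26.2 FPKM in shoots and 25.5 in roots, while the medians of the other classes lay between 14.6 and 16.2 FPKM in shoots. Of the 14, 9 held no other listed locus on either strand, 10 were within 2-fold between the organs, 1 was shoot-biased and 1 root-biased at 4-fold. One locus of this kind lies on chromosome 8, on the minus strand spanning 84356145 to 84609178. It spanned 253 kb and had 374 FPKM in shoots and 364 in roots. FPKM divides by transcript length and not by span, and the transcript lengths behind these values are not given. Whether false spliced alignments joined some of the longest loci could not be checked from start and end alone, and was not tested.

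The most abundant long locus belonged to the roots. It lies on the plus strand of chromosome 6 spanning 39272636 to 39303933 (31.3 kb), and had 4091 FPKM in roots and 841 in shoots. The second is a minus-strand locus of 192 kb on chromosome 3, spanning 23904351 to 24095961, at 2600 FPKM in shoots and 1842 in roots. Next came a plus-strand locus of 143 kb on the same chromosome, spanning 168695539 to 168839001, with 1543 FPKM in roots and 135 in shoots. The level in roots was 4.86 times that in shoots at the first and 11.4 times at the last of these, while at the second shoots were 1.41 times higher. A minus-strand locus of 70.3 kb near the end of chromosome 6, spanning 165636959 to 165707271, had 1187 FPKM in roots and 808 in shoots. On the minus strand of chromosome 1, spanning 31068644 to 31206122, a locus of 137 kb had 777 FPKM in roots and 663 in shoots. None of these 5 abundant loci held another listed locus.

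Most long loci were present in both organs at similar levels. At 1 FPKM or more in each organ there were 1089 of the 1158 (94.0%), against 81.0% of all loci. Of the others, 41 reached this level in shoots alone and 28 in roots alone. Loci of 5 to 10 kb and of 10 to 20 kb stood at 94.5% and 95.3% in this count. Levels within 2-fold of each other, after adding 1 FPKM to both, were found at 965 long loci (83.3%), against 70.0% of all loci, 85.3% of loci of 10 to 20 kb and 82.7% of loci of 5 to 10 kb. Across the long loci, the levels in the organs had a rank correlation of 0.81, against 0.74 across all listed loci. Across loci of 10 to 20 kb it was 0.80, and across those of 5 to 10 kb also 0.80. These points come from the same 2 libraries.

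The organ contrast was taken as the log2 ratio of roots over shoots with 1 FPKM added to both levels, and a locus was called organ-biased at a ratio of at least 4-fold with at least 1 FPKM in the higher organ. By this measure 65 long loci (5.61%) were higher in shoots, against 7.55% of all listed loci. A further 16 (1.38%) were higher in roots, against 3.95% of all. The other 1077 long loci lay within 4-fold. The shares among loci of 10 to 20 kb were 5.53% and 1.09%, and those among loci of 5 to 10 kb were 5.30% and 1.37%. Loci up to 5 kb had 8.22% and 4.78%. The shares above 20 kb thus lay near those of the classes from 5 to 20 kb. With 1 library per organ none of the differences between classes was tested. The median log2 ratio was 0.07 for the long loci and 0.06 for all loci, with quartiles of -0.23 and 0.36 for the long and -0.56 and 0.54 for all. Roots had the higher FPKM at 53.2% of all loci, 60.0% of loci of 10 to 20 kb and 59.0% of those of 5 to 10 kb. Among the long loci this was so at 657 (56.7%). This small lean depended on the scaling of the libraries: the median log2 ratio of the long loci was 0.02 with the median of all loci set to 0, and 0.14 with equal FPKM sums.

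**Figure D2:**
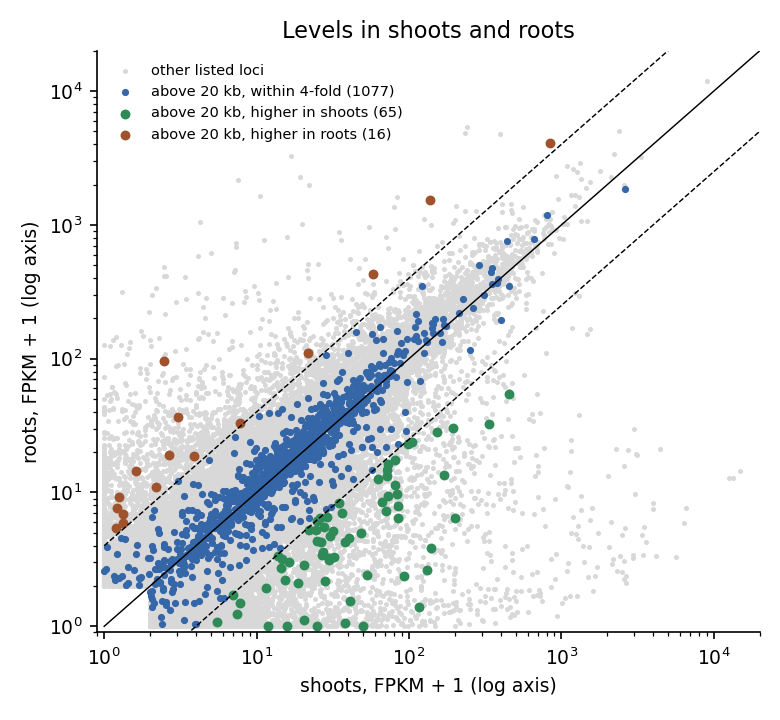
Level in roots against level in shoots, each as FPKM + 1 on a logarithmic axis, for the 1158 long loci (coloured) over the other listed loci (grey). The solid line marks equal levels and the dashed lines 4-fold differences; 65 long loci lie beyond the line toward shoots and 16 beyond that toward roots.

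By level, between 20 and 100 FPKM in the higher organ, 3 of 452 long loci (0.66%) were root-biased, against 7.48% of 6956 loci up to 5 kb. Between 5 and 20 FPKM there were 7 of 467, against 5.85%. At 100 FPKM or more there were 4 of 69 (5.80%), against 9.49%. Below 5 FPKM, where the added 1 FPKM restricts the ratio, there were 2 of 170 (1.18%), against 0.91%. Shoot bias among the long loci was found at 14 of 467 between 5 and 20 FPKM, at 8.85% between 20 and 100 FPKM and at 14.5% at 100 FPKM or more. The corresponding shares of loci up to 5 kb were 9.79%, 11.7% and 18.1%. Below 5 FPKM, 1 of 170 long loci (0.59%) was shoot-biased, against 2.25% of loci up to 5 kb. The shoot share of long loci thus rose with level. The root share did not rise steadily and was lowest between 20 and 100 FPKM. Between 5 and 20 FPKM both shares of long loci stood nearer to those of the loci of 5 to 20 kb than to those of the short ones. The same held for root bias between 20 and 100 FPKM, while the other classes of level were mixed.

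**Figure D3:**
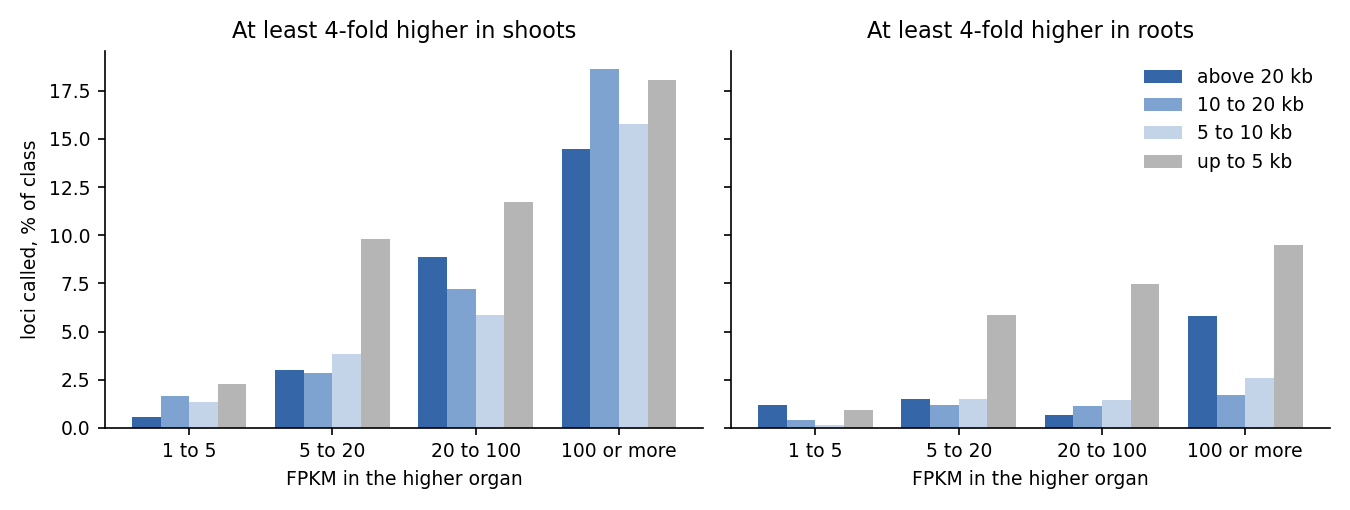
Percentage of loci called shoot-biased (left) and root-biased (right) at 4-fold, by the FPKM of the higher organ, for long loci and 3 classes of shorter span. Between 20 and 100 FPKM, 8.85% of long loci and 11.7% of loci up to 5 kb are called shoot-biased.

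The shoot-biased long loci spanned 20232 to 218592 bp. Their shoot levels ran from 4.52 to 455 FPKM with a median of 33.6 FPKM, and their root levels from 0 to 53.8 FPKM with a median of 3.37 FPKM. The ratio was at least 8-fold at 28 of the 65 and at least 32-fold at 6. P_XLOC_003924 had the largest of these ratios among long loci of at least 10 FPKM. It lies near the end of chromosome 1, on the plus strand spanning 290394996 to 290439995, and had 115 FPKM in shoots and 0.39 in roots, a log2 ratio of -6.38. All 3 loci inside it were low: the 2 on its own strand had 4.08 and 1.80 FPKM in shoots and 0.03 and 0.02 FPKM in roots, and the one on the opposite strand had 3.12 FPKM in shoots and was listed at 0 in roots. A short plus-strand locus downstream of it, spanning 290448166 to 290449263, was far more abundant and leaned the same way, with 3076 FPKM in shoots and 18.5 in roots.

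M_XLOC_017165 came next. This minus-strand locus of chromosome 5, spanning 16129518 to 16164823, had 48.8 FPKM in shoots and was listed at 0 in roots. The locus of 339 bp inside it on the same strand repeated this pattern at nearly the same level, with 46.5 FPKM in shoots and 0 in roots. On the minus strand of chromosome 1, a locus of 32.4 kb spanning 221370536 to 221402911 had 130 FPKM in shoots and 1.65 in roots. A plus-strand locus on chromosome 3, spanning 76083608 to 76118803, had 139 FPKM in shoots and 2.85 in roots. It held a same-strand locus of 556 bp at 60.8 FPKM in shoots and 0 in roots. Besides M_XLOC_017165, long loci listed at 0 in roots were one on chromosome 7 spanning 91230503 to 91274840 with 10.8 FPKM in shoots and one on chromosome 8 spanning 38699709 to 38737634 with 14.9 FPKM in shoots. A single long locus was listed at 0 in shoots, on chromosome 2 spanning 97421103 to 97447653, with 1.57 FPKM in roots. Of all 37398 listed loci, 597 were at 0 in roots and 276 in shoots. All 4 long loci listed at 0 are on the minus strand. Over all listed loci, the zeros in roots fell on 305 plus-strand and 292 minus-strand loci, and those in shoots on 133 and 143. What a listed 0 stands for is not recorded in the sources at hand.

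The highest shoot level among the shoot-biased long loci was that of a plus-strand locus of 107 kb on chromosome 4, spanning 192916448 to 193023853, with 455 FPKM in shoots and 53.8 in roots. Another 9 reached 100 FPKM in shoots. One of them, of 83.2 kb on the plus strand of chromosome 1 spanning 295106763 to 295189976, had 199 FPKM in shoots and 5.41 in roots. Another, of 21.2 kb on the plus strand of chromosome 6 spanning 140290311 to 140311511, had 332 FPKM in shoots and 31.7 in roots. Neither held another listed locus.

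The root-biased long loci were few, with spans from 21080 to 143463 bp, and their levels were spread more widely than those of the shoot-biased. Their root levels ran from 4.44 to 4091 FPKM with a median of 17.8 FPKM, and their shoot levels from 0.20 to 841 FPKM with a median of 1.57 FPKM. At least 8-fold ratios were found at 4 of the 16, and an at least 32-fold ratio at 1. That one was P_XLOC_022760, on the plus strand of chromosome 7 spanning 36509725 to 36532994, with 95.0 FPKM in roots and 1.47 in shoots, a log2 ratio of 5.28. The next plus-strand locus downstream, spanning 36540811 to 36544889, was alike, with 83.2 FPKM in roots and 2.66 in shoots. The next long locus on that strand was the reverse. It begins 89.4 kb beyond the end of P_XLOC_022760, covers 36622399 to 36647694, and had 91.8 FPKM in shoots and 1.36 in roots. This was 1 of 2 places where organ-biased long loci lay within 500 kb of each other. At the other, on chromosome 4, both were root-biased, with 8.20 FPKM in roots and 0.26 in shoots for the minus-strand locus from 189293788, and 17.7 FPKM in roots and 2.86 in shoots for the plus-strand locus from 189366811.

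P_XLOC_002190, on the plus strand of chromosome 1 spanning 184780241 to 184864123, had 35.9 FPKM in roots and 2.04 in shoots, 17.6 times as much. On the minus strand of chromosome 10, a locus of 95.4 kb spanning 86005419 to 86100829 had 429 FPKM in roots and 57.2 in shoots. The locus of 1017 bp near its middle, on the same strand, had 65.4 FPKM in roots and 7.55 in shoots, so that the log2 ratios of the pair were 2.89 and 2.96. In total 4 root-biased long loci reached 100 FPKM in roots: this locus, the loci on chromosomes 6 and 3 described above, and a minus-strand locus of 81.3 kb on chromosome 10. The last, spanning 2049302 to 2130564, had 110 FPKM in roots and 20.6 in shoots. It overlaps by 66.3 kb a plus-strand long locus, spanning 2043909 to 2115599, whose levels were nearly equal, at 20.8 FPKM in roots and 23.2 in shoots.

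A region near the end of chromosome 5 joined opposite patterns on 1 strand. There a minus-strand long locus spanning 210043333 to 210162293 had 13.5 FPKM in roots and 0.62 in shoots. A second minus-strand long locus, spanning 210146089 to 210174618, overlaps it by 16.2 kb and was far more abundant, with 760 FPKM in roots and 440 in shoots. Inside the stretch that both share lies a minus-strand locus of 1482 bp with 61.9 FPKM in shoots and 2.78 in roots. Another locus of 1334 bp inside the first had 45.8 FPKM in shoots and 2.41 in roots. The root-biased host thus held a pair of strongly shoot-biased loci on its own strand. How reads were divided among loci that overlap on 1 strand is not recorded in the sources at hand.

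Overlap between long loci was rare. It occurred in 17 pairs made up of 33 loci, 8 pairs on the same strand and 9 on opposite strands. On chromosome 5, a plus-strand locus spanning 33291630 to 33421404 and a minus-strand locus spanning 33289631 to 33418305 overlapped over 126676 bp, almost their whole length. The plus-strand locus had 15.9 FPKM in shoots and 18.5 in roots, the minus-strand locus 26.4 and 64.4 FPKM. On chromosome 7, a minus-strand locus spanning 4307074 to 4373816 had 24.0 FPKM in shoots and 0.01 in roots. The plus-strand locus of 25.2 kb wholly inside it had 1.47 FPKM in shoots and 2.07 in roots. Opposite strands of the same stretch could thus differ in their organ pattern. On chromosome 2, a plus-strand locus spanning 209584090 to 209604967 and a minus-strand locus spanning 209586635 to 209610220 both leaned toward shoots, with 47.9 against 20.9 FPKM and 83.9 against 5.43 FPKM.

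Along the chromosomes, long loci followed the general distribution of loci, with many toward the ends and few in the middle, but less steeply. Position was measured as the midpoint of a locus in percent of the listed extent of its chromosome. In the central part, from 25% to 75%, lay 453 long loci (39.1%), against 34.7% of all listed loci. The share was 35.0% for loci of 10 to 20 kb and 30.9% for those of 5 to 10 kb. The share of long loci exceeded that of all loci on 9 of 10 chromosomes, by 0.31 percentage points on chromosome 6 up to 11.3 on chromosome 9. It fell short by 10.3 percentage points on chromosome 4. With each chromosome divided into 10 equal bins, 4.76% of the listed loci were long in bin 5, against 2.68% in bin 1 and 2.65% in bin 10. Bins 3 and 4 stood at 3.78% and 4.11%. Bins 6 and 7 stood at 3.20% and 2.88%, near the 3.10% over all bins, so the excess was not spread evenly over the central part. The long loci of bin 5 also had the largest median span of any bin, 36386 bp against 28034 bp in bin 1.

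**Figure D4:**
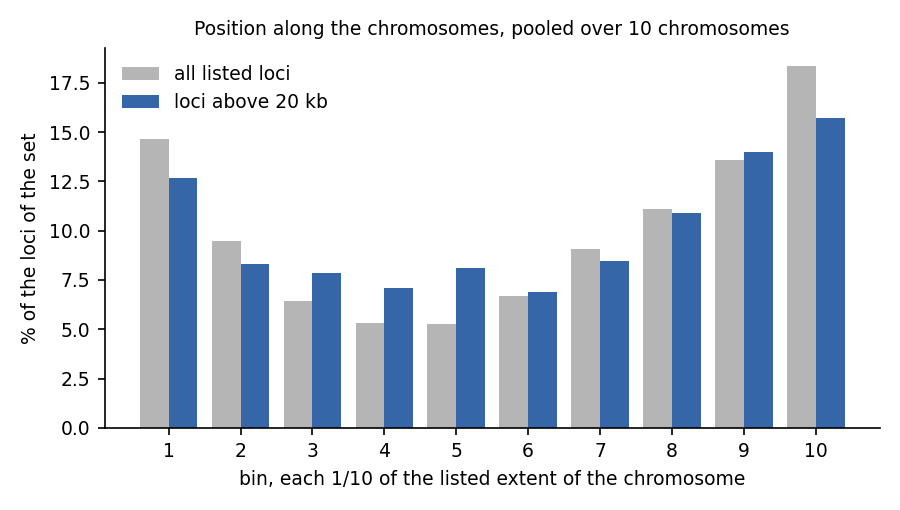
Distribution over 10 equal bins of the chromosome extent, pooled over the 10 chromosomes, as a percentage of all listed loci (grey) and of the 1158 long loci (blue). The outermost bins hold 14.6% and 18.4% of all loci but 12.7% and 15.7% of the long loci, and bin 5 holds 5.28% of all and 8.12% of the long.

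Level hardly differed with position. Long loci of the central part had medians of 15.8 FPKM in shoots and 14.8 in roots, and those outside it 14.7 and 14.5 FPKM. Among all listed loci the central part was lower, with 7.94 FPKM in shoots and 6.64 in roots, against 9.47 and 9.02 FPKM. Loci of 10 to 20 kb were not lower there, with 17.7 and 17.0 FPKM against 16.7 and 15.3 FPKM. Those of 5 to 10 kb had 16.2 and 15.8 FPKM against 17.8 and 17.2 FPKM. Shoot bias was found at 27 long loci of the central part (5.96%) and 38 outside it (5.39%), and root bias at 9 (1.99%) and 7 (0.99%). Of all listed loci, 8.65% in the central part and 6.96% outside it were shoot-biased, and 3.62% and 4.12% were root-biased. The root shares of long and of all loci thus ran in opposite directions, the former over 16 loci. Root shares of loci of 5 to 10 kb, 1.58% and 1.28%, ran as those of the long loci. Those of loci of 10 to 20 kb, 0.70% and 1.29%, ran as those of all loci. These differences were not tested. The nearest listed locus that did not overlap a long locus, on either strand, was a median of 18732 bp away, against 4992 bp for all loci. This gap was 11682 bp for loci of 10 to 20 kb and 7174 bp for those of 5 to 10 kb.

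The number per chromosome ranged from 63 on chromosome 9 to 184 on chromosome 1. As a share of listed loci, chromosome 9 had 2.23% and chromosome 2 had 3.50%. The longest locus of chromosome 9 spanned 87205 bp, whereas each of the other chromosomes had one of at least 155896 bp. Shoot-biased long loci were found on every chromosome, from 3 of 63 on chromosome 9 to 14 of 184 on chromosome 1. Root-biased ones numbered at most 3 on a chromosome. None was among the 155 long loci of chromosome 2 or the 63 of chromosome 9. Only 1.38% of the long loci were root-biased, against 3.95% of all listed loci, and differences between chromosomes were not tested. On the plus strand the median log2 ratio of the long loci was 0.03, and on the minus strand 0.12, against 0.01 and 0.10 for all listed loci.

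Most long loci held no other listed locus. A locus was counted as inside when its start and end both fell within the long locus. This was the case for 318 long loci (27.5%), of which 232 held a locus on their own strand, 143 on the opposite strand and 57 on both. There were 476 different loci inside on the same strand and 226 on the opposite strand. Per megabase of long-locus span, this came to 9.72 same-strand and 4.54 opposite-strand pairs, beside an average of 9.09 listed loci per megabase and strand over the whole listed extent. Counting also those that crossed an end, 42 long loci were overlapped by an opposite-strand locus at the 3' end and 33 at the 5' end, and 783 (67.6%) overlapped no listed locus at all. Organ bias among these 783 was 4.60% toward shoots and 1.15% toward roots, against 7.55% and 3.95% of all listed loci.

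The share of long loci holding any other locus was 21.8% at 20 to 30 kb, 25.4% at 30 to 50 kb, 35.4% at 50 to 100 kb and 61.8% above 100 kb. Per megabase of host, same-strand loci were most frequent in the hosts of 20 to 30 kb, with 14.0, and least in those of 50 to 100 kb, with 6.60. Opposite-strand loci numbered between 3.45 and 5.63 per megabase in the 4 classes. Hosts and empty long loci had nearly the same median level, 15.4 and 15.2 FPKM in shoots and 14.6 and 14.7 FPKM in roots. Shoot bias was found at 7.55% of the hosts and 4.88% of the empty ones, against 7.55% of all listed loci. It was found at 20 of the 232 (8.62%) that held a same-strand locus and 7 of the 143 (4.90%) that held an opposite-strand one. Root bias was found at 1.57% of the hosts and 1.31% of the empty ones, against 3.95% of all listed loci. These differences were not tested.

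The loci inside were mostly short and low. Those on the same strand had a median span of 386 bp and medians of 3.73 FPKM in shoots and 2.55 in roots. Those on the opposite strand had a median span of 908 bp and medians of 3.37 FPKM in shoots and 3.41 in roots. Of the same-strand loci, 62.4% spanned at most 500 bp, against 32.7% of the opposite-strand loci and 16.6% of the listed loci up to 20000 bp that were not inside a long locus. At equal span the same-strand loci of 200 to 500 bp had the level of loci elsewhere, with 2.68 against 2.61 FPKM in shoots and 2.04 against 2.07 FPKM in roots. At 500 to 2000 bp they were lower, with 2.55 against 4.22 FPKM in shoots and 1.88 against 3.77 FPKM in roots. At 2000 to 5000 bp the difference was larger, with 5.85 against 13.2 FPKM in shoots and 4.19 against 12.4 FPKM in roots, over 39 loci inside. Opposite-strand loci of that class, also 39, stood between, at 8.08 and 7.32 FPKM.

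Same-strand loci inside were gathered toward both ends of their hosts. With hosts divided into 5 equal bins along the direction of transcription, the first and the last bin each held 122 of the 488 same-strand pairs, and the inner bins held 78, 79 and 87. Opposite-strand loci showed no such pattern, with 50, 36, 50, 52 and 40 pairs from the 5' to the 3' end of the host.

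Inside loci generally stood well below their host. On the same strand the median was 25.3% of the host's FPKM in shoots and 20.4% in roots. On the opposite strand it was 26.2% and 31.7%. The inside locus was the more abundant in 75 of 488 same-strand pairs (15.4%) and 50 of 228 opposite-strand pairs (21.9%) in shoots, and in 67 (13.7%) and 52 (22.8%) in roots. How completely the libraries separated the strands was not measured, and its part in the levels of opposite-strand loci was not tested.

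Organ bias was also counted among the loci inside. Of the 476 same-strand loci, 26 (5.46%) were shoot-biased and 7 (1.47%) root-biased. Of the 226 opposite-strand loci, 13 (5.75%) were shoot-biased and 11 (4.87%) root-biased, against 5.61% and 1.38% of the long loci and 7.55% and 3.95% of all listed loci. Of the 11, 6 were among the 28 opposite-strand loci of up to 200 bp. The share at 1 FPKM or more in both organs was 73.3% on the same and 74.3% on the opposite strand, lower than the 81.0% of all loci. The log2 ratios of host and inside locus had a rank correlation of 0.33 across the same-strand pairs and 0.18 across the opposite-strand pairs. With both at 5 FPKM or more in an organ it was 0.32 over 195 pairs and 0.23 over 93. Pairs share their libraries, and hosts with several loci enter repeatedly. In 366 of the 488 same-strand and 153 of the 228 opposite-strand pairs the log2 ratios of host and inside locus were within 1 of each other.

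Shoot-biased hosts took part in 41 same-strand pairs, and in 11 of them the inside locus was shoot-biased as well and in 0 root-biased. On the opposite strand they took part in 11 pairs, of which 3 had a shoot-biased inside locus and 0 a root-biased one. Among the 440 same-strand pairs whose host had no organ bias, 16 inside loci were shoot-biased and 6 root-biased. Among the 214 such opposite-strand pairs there were 11 of each. Root-biased hosts took part in only 7 same-strand pairs, from 3 hosts, and there 2 inside loci were shoot-biased and 1 root-biased. On the opposite strand they took part in 3 pairs, with 0 shoot-biased and 0 root-biased inside loci.

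**Figure D5:**
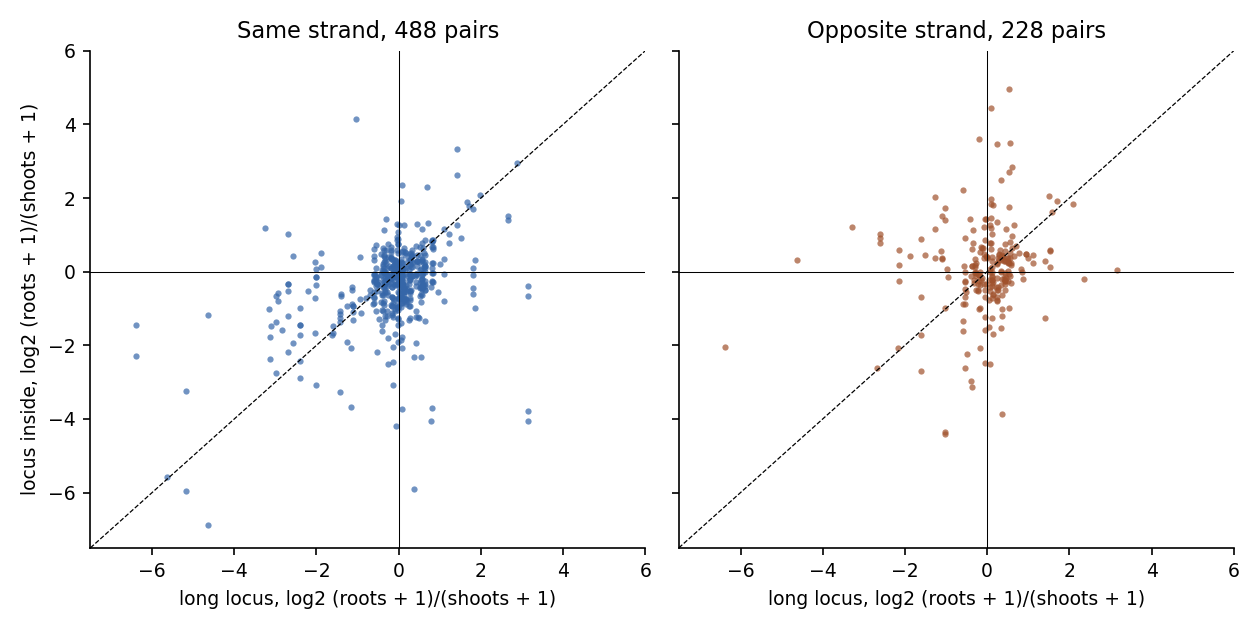
Log2 ratio of roots over shoots, with 1 FPKM added, of each inside locus against that of the long locus that holds it, for 488 same-strand pairs (left) and 228 opposite-strand pairs (right). The dashed line marks equal ratios; the rank correlations are 0.33 and 0.18, and most points lie near the centre with some inside loci far above or below.

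In a few pairs the organ ratio of the inside locus differed strongly from that of its host, and these were singled out after their values were seen. On chromosome 7, a minus-strand locus of 107 kb spanning 108281609 to 108388756 had 398 FPKM in shoots and 194 in roots. The locus of 1553 bp inside it on the same strand, spanning 108302403 to 108303955, had 965 FPKM in roots and 53.5 in shoots. Also on chromosome 7, a minus-strand locus spanning 6539765 to 6601196 was nearly even, with 17.8 FPKM in shoots and 23.3 in roots. Its same-strand inside locus, spanning 6576656 to 6578321, had 76.5 FPKM in shoots and 0.30 in roots. On the opposite strand, the 262 kb locus of chromosome 5 held a minus-strand locus, spanning 68651828 to 68655439, at 60.2 FPKM in roots and 0.96 in shoots. Its own levels of 48.1 and 32.7 FPKM were far closer to each other. A log2 difference of at least 3 between inside locus and host was found in 16 of the same-strand pairs, 7 toward roots and 9 toward shoots, and in 15 of the opposite-strand pairs, 11 toward roots and 4 toward shoots. Host and inside locus leaned toward different organs in 4 of the 7, 8 of the 9, 7 of the 11 and 1 of the 4, and toward the same organ in the others. The latter include the 3 low loci inside P_XLOC_003924, which were near 0 in roots like their host, and whose ratios are held down by the added 1 FPKM.

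The host with most same-strand loci was a plus-strand locus of 45.9 kb on chromosome 4, spanning 82149949 to 82195837. It held 12 loci, all on its own strand. Its levels were low, at 5.70 FPKM in shoots and 3.39 in roots. Those of the 12 ranged from 0.87 to 5.55 FPKM in shoots and from 0.48 to 3.10 FPKM in roots, so none exceeded the host. Next was a minus-strand locus of 28.1 kb near the end of chromosome 3, spanning 224570068 to 224598149, with 10 same-strand loci of 150 to 841 bp. It had 14.7 FPKM in shoots and 23.4 in roots, and the loci inside ranged from 3.30 to 21.3 FPKM and from 2.29 to 23.8 FPKM. On the minus strand of chromosome 1, a locus of 133 kb spanning 288079057 to 288212296 had 46.7 FPKM in shoots and 70.3 in roots and held 8 same-strand loci at 1.18 to 23.7 FPKM in shoots. The loci inside these 3 hosts had log2 ratios between -0.85 and 0.61, and none was organ-biased.

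The host with most opposite-strand loci was a plus-strand locus of 53.7 kb on chromosome 8, spanning 158308749 to 158362438, with 6 on each strand. Its own level was 9.55 FPKM in shoots and 6.22 in roots. The most abundant locus inside, of 273 bp on the minus strand, exceeded it with 42.8 FPKM in shoots and 23.0 in roots. A plus-strand locus of 177 kb on chromosome 1, spanning 283719970 to 283896471, had 62.7 FPKM in shoots and 89.5 in roots and held 5 opposite-strand loci. One of these, of 975 bp spanning 283858855 to 283859829, was as abundant as the host, with 94.9 FPKM in shoots and 96.0 in roots. The longest locus of all, on chromosome 2, also held 5 opposite-strand loci. One of them, of 160 bp, was listed at 0 in shoots and at 10.04 FPKM in roots, and FPKM of so short a locus depends strongly on the assumed fragment length.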

How the data were processed

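Polyadenylated RNA of maize B73 shoots and roots, 1 strand-specific single-end library per organ, was compared in 1 table of FPKM values that the authors deposited. TopHat, Cufflinks and Cuffdiff are named without version or role in the submitters' processing notes, with no settings. Build and coordinates are those of B73 RefGen_v2, per the file header. Depth is unknown, so no interval or detection limit is given.

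Long loci were those above 20000 bp, and ratios used a pseudocount of 1 FPKM, which understates the change of low loci. With 1 library per organ no test of a difference was made. The members, lists and rules were chosen with earlier results of these data known. Long loci were singled out by rule: the 5 longest, the 5 most abundant, the 5 with the largest ratio toward each organ among those at 10 FPKM or more, the 3 holding most loci on each strand, and 3 on each side of the threshold. Other loci were picked after their values were seen. Sequences of the loci were not analysed here. The organ-bias calls were checked with the shoot levels placed in both organs and 8-fold changes planted at some loci of at least 10 FPKM. Changes near 4-fold or at lower levels were not planted, so this checked only arithmetic and direction. The search for inside loci was tested on simulated positions with known inside loci. The other calculations were not tested in this way. Python 3.11.15, pandas 2.3.3, NumPy 2.4.6, SciPy 1.17.1 and matplotlib 3.10.9 were used.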

Additional observations from a re-analysis of the deposited data

How the results depend on the processing

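Recomputed under other settings, 31 counts moved by at most 1.5 times and 18 by more, and the 4 median levels by at most 1.5 times. The median log2 ratio of long loci, 0.07, changed sign in none of 7 settings and moved by more than 1.5 times in 2, to 0.02 with the median of all loci set to 0 and to 0.14 with equal FPKM sums. Shoot-biased long loci numbered 35 with a pseudocount of 5 FPKM (3.02%, against 3.60% of all loci). At 2-fold there were 131 (11.3% against 17.1%), and at 8-fold 28 (2.42% against 3.73%). By span there were 38 of 599 loci above 30 kb and 98 of 1758 above 15 kb. Root-biased long loci numbered 30 with a pseudocount of 0.1 FPKM (2.59% against 7.24%) and 6 with 5 FPKM (0.52% against 1.58%). At 2-fold there were 62 (5.35% against 12.9%), and at 8-fold 4 (0.35% against 1.47%). Such shifts follow from the thresholds themselves and from the added FPKM. Shoot bias was the more frequent in every setting run. It made up 80.2% of the calls among long loci, 73.2% with a pseudocount of 0.1 FPKM and 67.9% at 2-fold, against 65.7%, 63.7% and 57.0% of the calls over all loci. This was not particular to long loci. In the main setting, loci of 10 to 20 kb had 112 shoot-biased and 22 root-biased calls, and those of 5 to 10 kb had 305 and 79. Scaling the libraries shifted all ratios by at most 0.08 and left 60 to 68 shoot-biased and 16 to 17 root-biased long loci. These were 5.18% to 5.87% and 1.38% to 1.47% of the long loci, against 7.28% to 7.91% and 3.73% to 4.25% of all. Of the 599 loci above 30 kb, 558 were detected in both organs, 259 lay in the central part of their chromosome and 140 held a same-strand locus. Inside them on that strand lay 292 loci. Of the 1758 loci above 15 kb, 1663 were detected in both organs. The main set had 1158 loci, so these counts changed with the size of the set. Restricting inside loci to 5 FPKM or more in an organ left 130 hosts and 200 loci on the same strand, and 89 hosts and 111 loci on the opposite strand. Leaving out inside loci up to 200 bp and centring each strand, both added after seeing the data, changed no count by over 1.5 times. No paired analysis was possible because each organ has 1 library, which also left none to omit. With depth unknown, counting error of low loci was not assessed.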
